A study of Homo sapiens with 6 samples.

Results

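The regions described here carried an ATAC-seq interval in all 4 libraries of the SLFN11-expressing K562 lines and in neither library of the vector line. They were selected by presence or absence in the deposited lists: overlapping intervals of the 6 libraries on chromosomes 1 to 22 were merged into 16888 regions, and 526 of these met the rule, a share of 3.11%. Chromosome X would add 13. The values that selected the regions are given as a description, without a test. In ATAC-seq a transposase cuts open DNA and leaves sequencing adapters there, so that an interval marks a place where fragments pile up over the surrounding background.

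K562 is an established human leukaemia line. The study used K562 cells overexpressing E669Q SLFN11, K562 cells overexpressing wild-type SLFN11, and a vector control line. Each line received 1000 nM camptothecin (CPT) for 4 h, or DMSO, which gives 1 library for each of 6 groups. No difference between libraries therefore has a replicate check, and no test between groups was made. The sources used here give neither how the transgenes are driven, nor whether a line is 1 clone, nor the SLFN11 levels. The cell type was not checked against marker genes, because gene positions on hg19, the build of the lists, were not used here.

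SLFN11 belongs to the Schlafen family and is recruited to stressed replication forks. The E669Q protein carries a substitution in the ATPase domain. CPT traps topoisomerase I on DNA, and replication forks that run into the trapped enzyme stall or break. SLFN11 is known for blocking replication under such stress and for sensitising cancer cells to DNA-damaging drugs. Open chromatin marks active promoters, enhancers and insulators.

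Depth differed between the libraries. Relative to the vector library with DMSO it was 2.22 and 1.33 in the E669Q libraries with CPT and DMSO, 1.09 and 1.72 in the wild-type SLFN11 libraries, and 1.09 in the vector library with CPT. The E669Q lists held 11950 and 8114 autosomal intervals with CPT and DMSO, the wild-type SLFN11 lists 5397 and 11242, and the vector lists 5651 and 5091. The SLFN11 lines were thus as deep as the vector libraries or deeper, and depth moved with the property that selected the regions.

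Of the 3636 regions found in all 4 SLFN11-line libraries, most also had a vector interval. Both vector lists held 2095, the vector list with CPT alone held 611 and the vector list with DMSO alone held 404, which left the 526, or 14.5% (95% interval 13.3 to 15.7). Shares carry exact Clopper-Pearson intervals, which cover counting error only and treat regions as independent. The mirrored sets were small, but each asks for absence from a list longer than either vector list. They were not counted in lists of matched length, so their sizes are not like for like with the 526. In the libraries of wild-type SLFN11 and vector together, without E669Q, 21 regions were found. In those of E669Q and vector, without wild-type SLFN11, there were 25. Both vector lists together, without any SLFN11-line list, shared 20 regions out of the 3168 in both vector lists. Leaving out a library drops a condition of the rule, so the count of selected regions tends to rise. The count was 1310 without the wild-type SLFN11 library with CPT, 1136 without the vector library with CPT and 930 without the vector library with DMSO. In lists cut to the same length of 5246 intervals, 124 regions met the rule.

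The 526 regions were weak peaks. The median summit pileup, which is the number of fragments stacked at the highest point, was 13 in E669Q with CPT, 9 in E669Q with DMSO, 8 in wild-type SLFN11 with CPT and 11 in wild-type SLFN11 with DMSO. Divided by relative depth these became 5.86, 6.74, 7.33 and 6.39 fragments. In regions found in all 6 libraries, the depth-scaled medians in the same 4 libraries were 9.01, 10.5, 10.1 and 11.6, and 10.1 and 11 in vector with CPT and with DMSO. The selected regions thus had scaled medians of 5.86 to 7.33, below every scaled median of the regions found in all 6 libraries.

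**Figure D1:**
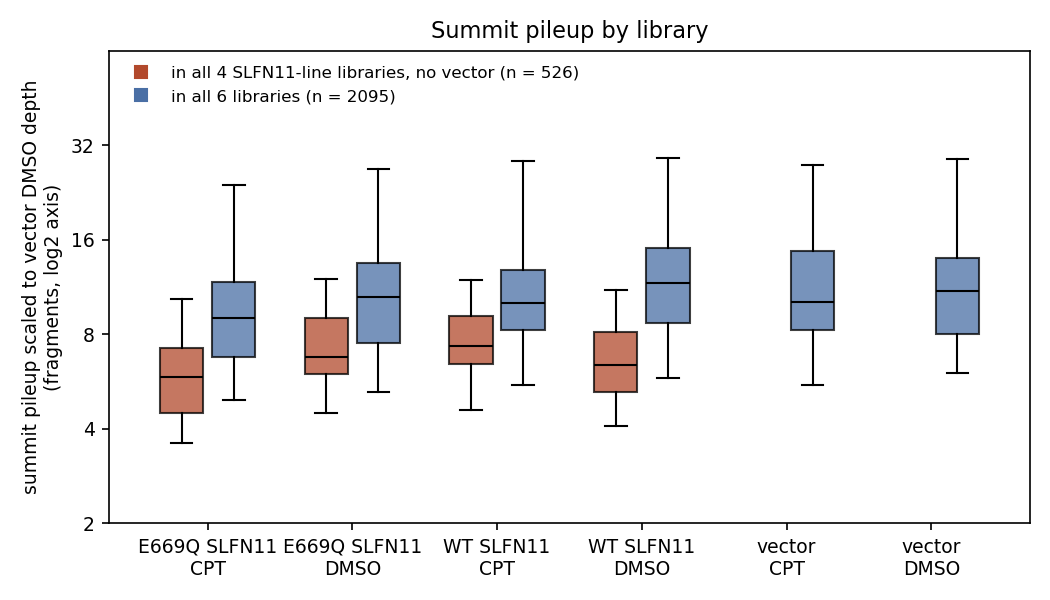
Summit pileup of each region, divided by relative depth, in the 6 libraries (log2 axis, fragments). Boxes span the quartiles with the median as a line and whiskers run from the 5th to the 95th percentile; the 526 regions without a vector interval have no vector boxes, and their medians of 5.86 to 7.33 lie below the 9.01 to 11.6 of the regions in all 6 libraries, of which 2075 to 2082 had a recovered pileup.

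Signal in the SLFN11 lines was lower in regions that fewer vector lists held. Averaged over the 4 SLFN11-line libraries, the median scaled pileup was 6.85 (95% interval 6.68 to 7.05) in the 526 regions. It was 7.95 (7.72 to 8.13) in the regions also in the vector list with CPT, 7.69 (7.50 to 7.91) in those also in the vector list with DMSO and 10.2 (10.0 to 10.4) in those in both. The lowest of the 4 fold enrichments the authors gave each region had a median of 5.01 in the 526, against 5.96 in regions found in all 6 libraries. Of the 526, 296 lay in the weakest quartile of all regions found in the 4 SLFN11-line libraries, 152 in the next, 66 in the third and 12 in the strongest. The 12 include all 8 regions of high local background described below.

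The selected regions were also narrower. They had a median width of 489 bp and ran from 160 to 1102 bp, against a median of 633 bp for regions found in all 6 libraries. The latter are merged from 6 lists rather than 4, so these widths are not like for like. Single intervals had median widths of 336.5 and 277 bp in E669Q with CPT and DMSO, and 224 and 321.5 bp in wild-type SLFN11 with CPT and DMSO. In regions found in all 6 libraries these were 472, 402, 309 and 491 bp in the same order. More than 1 summit was listed in 116 and 41 of the 526 regions in the E669Q libraries with CPT and DMSO, and in 12 and 74 in the wild-type SLFN11 libraries. Width and summit number were thus highest in the 2 deeper libraries. In 364 regions every interval was wider than 150 bp, and no region had 4 intervals of 150 bp or less.

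The 4 libraries placed the summit at similar but not identical points. The span from the first to the last of the 4 summits had a median of 160 bp, and 135 regions (25.7%) had all 4 summits within 100 bp. Regions found in all 6 libraries had a median span of 138 bp over the same 4 libraries, and 34.0% lay within 100 bp.

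The distance from the 526 regions to the nearest vector interval had a median of 67871 bp, with quartiles at 26584 and 138352 bp. It was not worked out for other regions or positions, so it is not read as near or far. A vector interval ended within 1 kb of 16 regions and within 10 kb of 50. The local background, measured over 10 kb around the summit, had a median of 2.30 to 2.42 times the genome mean in the 4 libraries, against 3.28 to 3.81 times at regions found in all 6.

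Absence from a list is not absence of signal, so the size of difference that it required was worked out. For each region the SLFN11-line pileups and backgrounds were scaled to the depth of a vector library, and compared with the least pileup that would have reached the lowest −log10 p of that vector list. For most regions this least pileup was close to the scaled pileup of the SLFN11 lines. Averaged over the 4 libraries, the scaled SLFN11-line pileup was a median of 1.20 times the least pileup needed in vector with CPT (quartiles 1.08 and 1.31), and 1.14 times in vector with DMSO (quartiles 1.04 and 1.25). The vector background at these regions is not in the lists, and a lower one would lower the need. At regions found in all 6 libraries the median log2 background ratio, SLFN11 lines over vector, was 0.12, and 0.67 on chromosome 19.

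In 96 of the 526 regions the scaled pileup fell below the need of at least 1 vector library. Over the scaled SLFN11-line background, a vector signal as high as that of the SLFN11 lines would have gone unlisted in that vector library. The need was reached in 473 of the 526 for vector with CPT and in 433 for vector with DMSO. Not all of the 96 were therefore below both needs. In the other 430 (81.7%) the scaled pileup lay at or above both needs. A ratio of 1.5 or more over both vector libraries was reached in 17 regions, and a ratio of 2 in none of the 526 for either vector library. The highest values were 1.75 against vector with CPT and 1.72 against vector with DMSO. Regions found in both vector lists had medians of 1.51 and 1.46 on the same measure, and 233 and 190 of 2071 reached 2. The lists therefore show the 526 regions as weaker than the listing limit in the vector libraries, not as closed there, and "open only in the SLFN11 lines" goes further than the data. The scaled pileup is the average of 4 libraries that each had to pass their own limit. Where each of the 4 libraries had to pass both vector limits by itself, 106 regions remained.

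**Figure D2:**
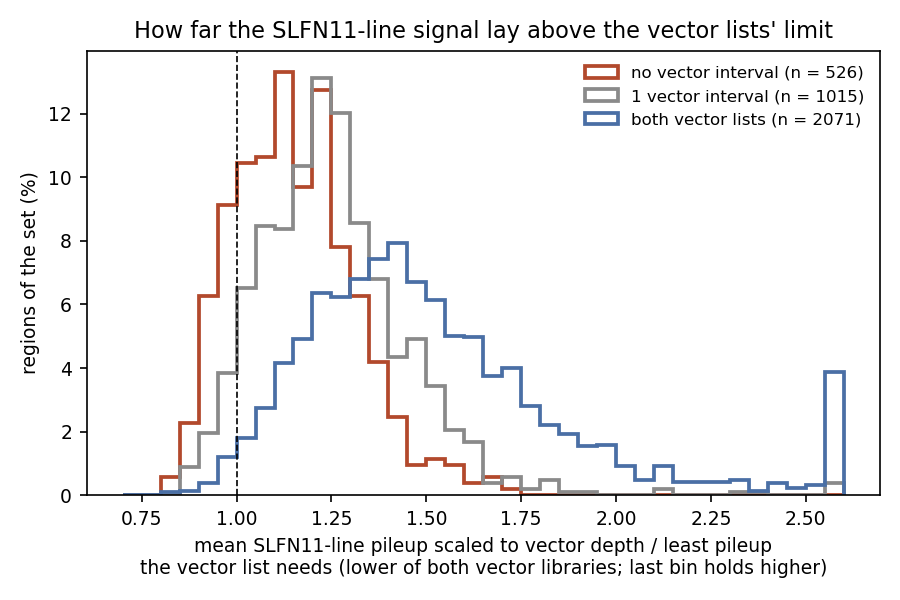
Ratio of the mean SLFN11-line pileup, scaled to vector depth, to the least pileup a vector list needs, taking the lower of the 2 vector libraries (x axis), as a percentage of each set (y axis). The dashed line marks a ratio of 1; the 526 regions without a vector interval have a median of 1.14, with 96 regions left of the line, and the regions in both vector lists lie further right.

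Regions were also ranked on the lowest of their 4 folds, among those whose intervals were all wider than 150 bp. Fold is a ratio over local background, so this is not a ranking by pileup. All positions are 1-based on hg19. The leading region was on chr15:101626187-101626771, with folds of 10.4 and 8.80 in E669Q with CPT and DMSO, and 7.98 and 7.37 in wild-type SLFN11 with CPT and DMSO. Its pileups were 27, 18, 12 and 13 fragments in that order, where 7 fragments over the scaled background would have been listed in either vector library. Its scaled signal was 1.70 and 1.69 times the need of the vector libraries with CPT and DMSO, and the nearest vector interval lay 81689 bp away.

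The next region was on chr1:25071467-25072008, with folds of 7.46, 8.82, 7.76 and 7.24 in the same order of libraries and pileups of 20, 16, 11 and 16. The third was on chr16:88772576-88773118, with folds of 7.20, 8.77, 7.60 and 8.81 and pileups of 17, 15, 11 and 22. The region chr2:24149698-24150335 had folds of 8.04, 8.12, 7.19 and 9.70. Ranking on the lowest fold picks regions whose 4 folds are all high, so how alike the folds are is not read. With the leading region included, no line or treatment held the highest fold in all of them.

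The region chr6:47277263-47277850 had folds of 9.24, 8.26, 7.18 and 8.30, and chr19:10491173-10491714 had 8.97, 9.44, 7.11 and 7.30. The region chr11:118927820-118928328 had folds of 7.33, 7.55, 8.64 and 7.08. It was the nearest of the 10 to a vector interval, at 9965 bp. The region chr4:103789814-103790545 had 9.91, 7.11, 7.07 and 8.03, chr19:36422381-36422724 had 6.97, 7.60, 7.01 and 7.62, and chr1:38061252-38061727 had 8.32, 7.79, 6.87 and 7.47. These 10 regions came from 8 chromosomes.

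The widest regions were not those with the highest folds. The widest, 1102 bp, lay on chr4:133265530-133266631, with intervals of 707 and 450 bp in E669Q with CPT and DMSO, and 205 and 989 bp in wild-type SLFN11 with CPT and DMSO. The next were on chr6:109703311-109704340, chr5:137673203-137674178, chr7:72936118-72937083 and chr1:21112939-21113898. The lowest folds of the 5 were 5.15, 5.32, 5.05, 5.11 and 6.72 in the order named. None was among the 10 regions ranked highest by lowest fold.

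A small group of the selected regions stood apart by background, and was singled out after its values were seen. In 8 regions the local background was at least 10 times the genome mean in all 4 libraries. They lay on chr1:143274921-143275204 and chr1:143283187-143283393, chr8:43826897-43827137, chr10:42597722-42597881, chr16:46395151-46395444, chr16:46406248-46407021 and chr16:46432532-46432990 and chr21:9699394-9699938. The region on chromosome 10 had pileups of 195 and 78 in E669Q with CPT and DMSO, and 82 and 88 in wild-type SLFN11 with CPT and DMSO. They stood over backgrounds of 103.6, 72.6, 84.7 and 70.0 times the genome mean, so its folds were 3.81, 3.52, 4.01 and 3.08. These were the highest pileups of the set in 3 libraries; in wild-type SLFN11 with DMSO the chromosome 21 region was higher, at 99 fragments and a fold of 5.24.

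The edges of the rule were looked at in different lists, the weakest SLFN11-line list just inside and the vector list just outside. Regions kept out by a missing SLFN11-line interval are not named here. Without the wild-type SLFN11 list with CPT, 1310 regions met the rule. The 3 regions just inside, by the −log10 q of their weakest list, lay on chr1:66370310-66370715, chr4:122721993-122722736 and chr8:145192389-145192801. Each had a −log10 q of 2.00 and a pileup of 4 in wild-type SLFN11 with CPT, and pileups of 7 to 11 in the other 3 libraries. Just outside were 3 regions in all 4 SLFN11-line lists and 1 vector list. The pileups given for both sides are not scaled for depth. The region chr22:20378373-20378795 had pileups of 22, 12, 18 and 30 in the SLFN11 lines, against 7 in vector with DMSO. The region chr11:809401-809973 had 19, 17, 9 and 15, against 6 in vector with CPT. The region chr17:79995244-79995665 had 11, 9, 7 and 18, against 5 in vector with CPT. The vector −log10 q of all 3 was 2.00. A slightly lower vector signal would have moved these regions into the set.

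Which chromosome a region lies on played no part in the rule. Chromosome 19 held 83 of the 526 regions (15.8%, 95% interval 12.8 to 19.2), against 40 of the 2095 found in all 6 libraries (1.91%, 1.37 to 2.59). The regions with 1 vector list lay between, with 62 of 611 (10.1%) on chromosome 19 where the vector list with CPT held the region and 26 of 404 (6.44%) where that with DMSO did. None of the 21, 25 and 20 regions of the mirrored sets was on chromosome 19, which at these numbers allows shares of up to 16.1%, 13.7% and 16.8%. Chromosome 19 as a whole held 5.09% of the 16888 regions. A larger share of chromosome 19 in this set was known before, so these counts describe it and are no separate evidence.

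Read the other way, 83 of the 211 chromosome 19 regions in all 4 SLFN11-line libraries had no vector interval, or 39.3% (32.7 to 46.3), against 14.5% over all chromosomes. Chromosome 17 followed with 34 of 105 (32.4%, 23.6 to 42.2), then chromosomes 15 and 20 with 11 of 40 each (27.5%), chromosome 16 with 37 of 136 (27.2%, 19.9 to 35.5) and chromosome 12 with 26 of 105 (24.8%, 16.9 to 34.1). The lowest shares were on chromosome 13 with 2 of 44 (4.55%), chromosome 5 with 16 of 241 (6.64%, 3.84 to 10.6), chromosome 22 with 4 of 49 (8.16%) and chromosome 8 with 17 of 193 (8.81%). Chromosomes 1 and 2, the longest, lay at 11.4% and 10.3%. The intervals of chromosome 22 (2.27 to 19.6) and chromosome 13 (0.555 to 15.5) were wide and held the overall share. That of chromosome 1 (8.71 to 14.6) held it too.

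**Figure D3:**
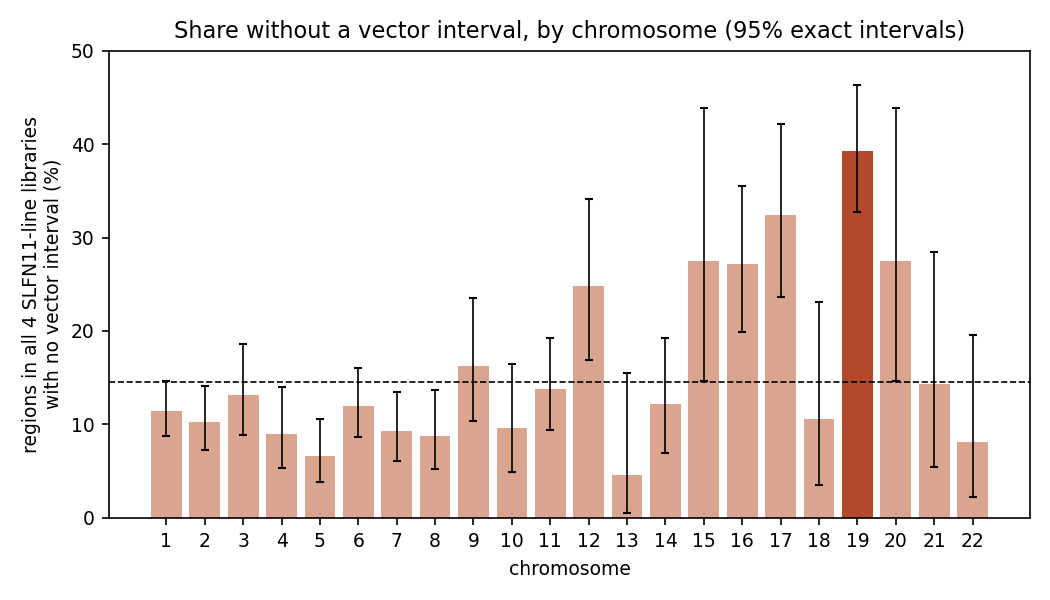
Percentage of the regions in all 4 SLFN11-line libraries that had no vector interval, by chromosome, with exact 95% intervals as bars. The dashed line is the 14.5% over all chromosomes; chromosome 19 (39.3%, dark) is highest and chromosome 13 (4.55%) lowest.

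The share of regions without a vector interval was then set out by strength, on chromosome 19 and elsewhere. Strength and the missing interval both entered the rule, so the shares are a description and their intervals, taken over regions of single libraries, are no test. In the weakest quartile by mean scaled pileup (3.99 to 7.14 fragments), 32 of 56 chromosome 19 regions had no vector interval (57.1%, 43.2 to 70.3), against 264 of 847 on other chromosomes (31.2%, 28.1 to 34.4). From 7.14 to 8.74 fragments the counts were 31 of 65 (47.7%) against 121 of 838 (14.4%). From 8.74 to 11.3 they were 19 of 66 (28.8%, 18.3 to 41.3) against 47 of 837 (5.62%, 4.15 to 7.40). Above that, 1 of 24 (4.17%, 0.105 to 21.1) stood against 11 of 879 (1.25%). For chromosomes 16 and 17 together the shares in the 4 quartiles were 44.9%, 27.1%, 9.30% and 13.8%. The last is 4 of 29 regions (3.89 to 31.7), and those 4 include the chromosome 16 regions of high background named above.

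Chromosome 19 regions without a vector interval were spread along the chromosome. Between 0 and 10 Mb 26 of 64 regions lacked a vector interval (40.6%), between 10 and 20 Mb 24 of 53 (45.3%), between 40 and 50 Mb 15 of 41 (36.6%) and between 50 and 60 Mb 11 of 24 (45.8%). Between 20 and 40 Mb the 2 bins held 2 of 10 and 5 of 19. On chromosome 16 the first 10 Mb held 15 of its 37 selected regions, out of 36 (41.7%, 25.5 to 59.2). On chromosome 17 the stretch from 40 to 50 Mb held 12 of 34, out of 25 (48.0%). Chromosome 1, at 11.4% as a whole, had 11 of 23 (47.8%, 26.8 to 69.4) between 20 and 30 Mb and 7 of 15 (46.7%) between 150 and 160 Mb. On chromosome 6, 11 of its 39 lay between 30 and 40 Mb, out of 41 (26.8%). Bins of 10 Mb on these chromosomes and on chromosome 12 were examined, and those named here were picked for their counts.

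Regions on chromosome 19 that the rule left out can be compared with the vector line directly. At the regions found in all 6 libraries, the log2 ratio of mean scaled pileup, SLFN11 lines over vector, had a median of 0.31 (0.20 to 0.41) on chromosome 19, with 40 regions, against −0.06 (−0.08 to −0.05) over all chromosomes. The chromosome 19 median was above that of the other chromosomes pooled in each line and treatment. On chromosome 19 the median was 0.30 in E669Q over vector with CPT, 0.47 with DMSO, 0.30 in wild-type SLFN11 over vector with CPT and 0.27 with DMSO. On the other chromosomes these were −0.24, −0.07, −0.09 and 0.08. On chromosomes 16 and 17 together they were 0.01, 0.01, 0.26 and 0.34. On chromosome 22, with 30 regions, they were 0.14, 0.35, 0.46 and 0.33, above chromosome 19 in both wild-type SLFN11 comparisons. These 4 comparisons share the 2 vector libraries and are not independent.

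Over 22 chromosomes, the share of regions without a vector interval was larger where this pileup ratio was larger (Spearman rho 0.521, Pearson r 0.631). Without chromosome 19 rho was 0.474 over 21 chromosomes. Chromosome 22 lay apart, with a median ratio of 0.34 (0.20 to 0.49) but 8.16% of regions without a vector interval. The local background moved with the shares, again apart from chromosome 22: at regions found in all 6 libraries its log2 ratio, SLFN11 lines over vector, was 0.67 on chromosome 19, 0.54 on chromosome 22, 0.52 on chromosome 17, 0.42 on chromosome 16 and −0.03 on chromosome 5, and rho with the share was 0.644. Gene density, as protein-coding genes in a RefSeq table of GRCh38 per Mb up to the last peak of each chromosome, gave rho 0.643. The chromosomes share the same 6 libraries, their depth and their base composition, so these values describe the pattern. The part of the local background in the chromosome shares was not tested. DNA copy number of the lines, which would enter pileups, was not analysed here.

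**Figure D4:**
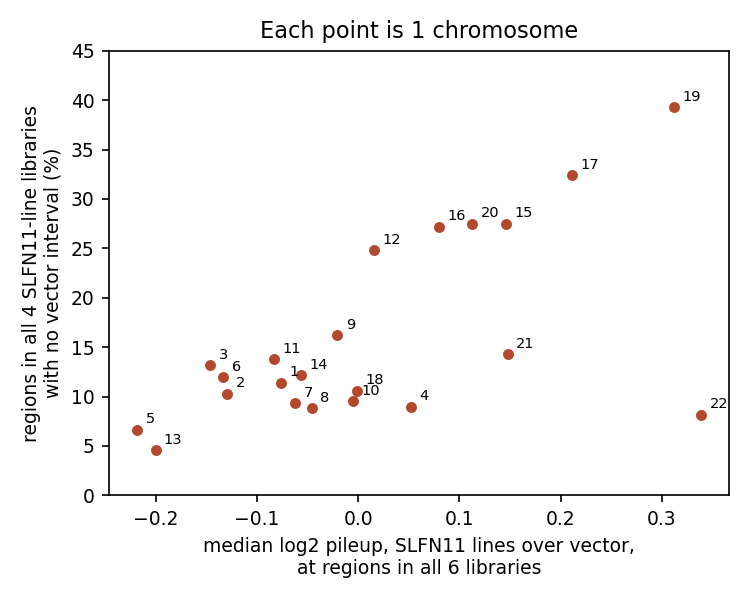
Each point is 1 of 22 chromosomes: the median log2 pileup ratio, SLFN11 lines over vector, at regions in all 6 libraries (x axis) against the percentage of regions in all 4 SLFN11-line libraries without a vector interval (y axis). Chromosome 19 is at the upper right (0.31, 39.3%), chromosome 5 at the lower left (−0.22, 6.64%), and chromosome 22 lies apart at the lower right (0.34, 8.16%).

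Members on chromosome 19 were close to the others in width and fold and higher in pileup. Their mean scaled pileup had a median of 7.69 (7.16 to 7.97), against 6.72 (6.58 to 6.90) for the 443 on other chromosomes, and their lowest fold 5.04 against 5.01. Median region width was 481 bp against 489 bp. By library, the medians in E669Q were 7.66 against 5.40 fragments with CPT and 7.49 against 6.74 with DMSO. In wild-type SLFN11 they were 8.25 against 7.33 with CPT and 6.39 against 6.39 with DMSO, so the gap between medians was widest in E669Q with CPT and absent in wild-type SLFN11 with DMSO. The median local background was higher on chromosome 19 in 3 of the 4 libraries, at 2.97 against 2.27 times the genome mean in E669Q with CPT, 2.74 against 2.27 in E669Q with DMSO and 2.71 against 2.28 in wild-type SLFN11 with CPT. It was lower in wild-type SLFN11 with DMSO, at 2.17 against 2.35.

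Chained at gaps under 100 kb, 98 (18.6%) of the 526 regions fell into 45 groups, 37 of 2 regions and 8 of 3, and 428 stood alone. On chromosome 19, 28 of the selected regions (33.7%) were in groups, against 70 (15.8%) on other chromosomes. Grouping was not worked out for regions outside the set, so these counts are not read as closer spacing than elsewhere. The 8 groups of 3 were tied for size. They lay on chr19:1021071-1082751 and chr19:18228498-18304031, chr17:27192320-27278828, chr17:41381667-41466412 and chr17:49230665-49338053, chr16:2014769-2098187 and chr16:46395151-46432990, and chr2:219134779-219261028. The 3 regions of each span lack a vector interval by the rule, and no other region found in the 4 SLFN11-line libraries lay within a span. Other spans were not counted, so this is not read as a local pattern. The group at 46395151 on chromosome 16 is made of 3 of the regions of high background, with lowest folds of 2.65 to 3.80.

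With CPT, median scaled pileup at the 526 regions lay on opposite sides of that with DMSO in the lines, but the direction depended on the scale. The intervals of these medians run over regions of a single library pair and do not cover variation between libraries. In the E669Q line the median CPT over DMSO ratio was 0.827 (0.802 to 0.859), with 20 regions (3.80%) higher by 1.5-fold or more and 141 (26.8%) lower. Over all 6518 regions in both E669Q libraries, 3.11% were higher and 22.7% lower by that rule. In the wild-type SLFN11 line the median was 1.15 (1.10 to 1.18), with 110 regions (20.9%) higher and 24 (4.56%) lower. Over all 4574 regions in both wild-type SLFN11 libraries, 12.2% were higher and 14.1% lower. The E669Q counts were thus near their background, while those of wild-type SLFN11 leaned to higher values.

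Both directions turned round on the authors' fold, which divides by local background. There the median ratio was 1.04 (1.01 to 1.07) in E669Q and 0.920 (0.901 to 0.948) in wild-type SLFN11. Because a region had to be listed in both libraries, the shallower library sets the lower end. The lowest scaled pileup among the 526 was 2.70 with CPT and 3.75 with DMSO in E669Q, and 3.67 with CPT and 2.90 with DMSO in wild-type SLFN11. In each line the shallower library had the higher floor and the higher median, and the part of depth in these ratios was not tested.

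**Figure D5:**
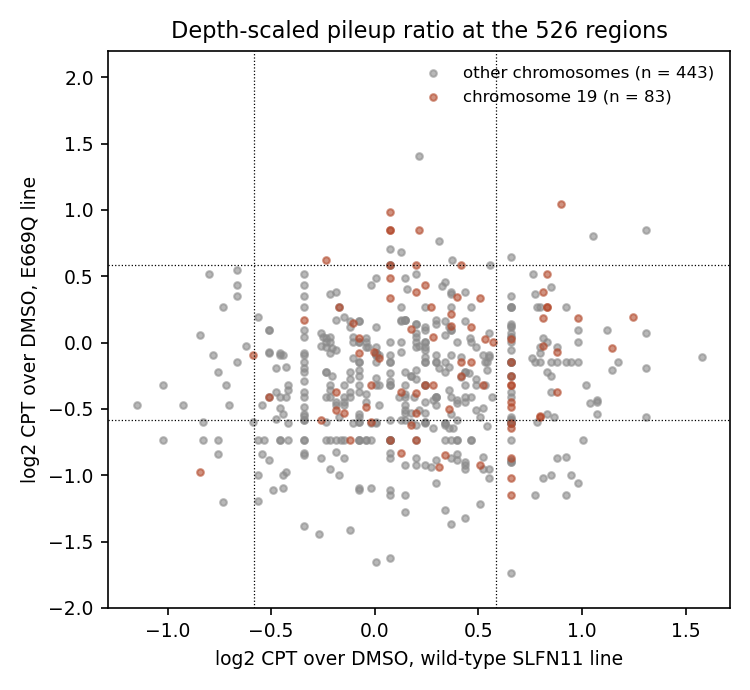
Log2 ratio of depth-scaled summit pileup, CPT over DMSO, in the wild-type SLFN11 line (x axis) and in the E669Q line (y axis) for each of the 526 regions, with chromosome 19 in red; dotted lines mark 1.5-fold. The lower right quadrant holds the most points, with 238 above 1 in wild-type SLFN11 and below 1 in E669Q against 42 the reverse, and with 4 regions past the upper lines in both lines and 8 past the lower ones; rows and columns of points come from whole fragment numbers.

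Few regions lay 1.5-fold or more the same way in both lines: 4 were higher and 8 lower with CPT in E669Q and in wild-type SLFN11. These are 0.760% and 1.52% of the 526, against 0.241% and 4.64% of the 2071 regions in all 6 libraries with a recovered pileup. On the authors' fold, counted after seeing the data, 1 of the 526 was higher and 3 lower in both lines. At any size, 238 regions were above 1 in wild-type SLFN11 and below 1 in E669Q, 42 the reverse, 106 above 1 in both and 140 below 1 in both. On the authors' fold 88 were above 1 in wild-type SLFN11 and below 1 in E669Q and 185 the reverse. Of the 2071 regions in all 6 libraries, 471 went the first way on scaled pileup and 408 the reverse. On the authors' fold these were 198 and 990 of 2095. Over the 526, the ratios of the 2 lines had a Spearman rho of 0.083 on scaled pileup and −0.007 on the authors' fold. In the regions in all 6 libraries rho was 0.097 and −0.011. The highest ratio common to both lines was at chr19:14529903-14530405, with scaled pileups of 10.8 with CPT and 5.24 with DMSO in E669Q, and 11.9 with CPT and 6.39 with DMSO in wild-type SLFN11. Next came chr6:61914110-61914363, with 12.2 against 6.74 and 20.2 against 8.13 in the same order. The region chr22:20378918-20379472 had 14.4 against 8.24 and 19.2 against 9.29, and lay 136 bp from a vector interval.

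The lowest common ratios were about as far from 1. The region chr19:2739974-2740270 had scaled pileups of 4.95 with CPT and 9.74 with DMSO in E669Q, and 5.50 with CPT and 9.87 with DMSO in wild-type SLFN11. The region chr14:102990943-102991418 had 5.86 against 10.5 and 5.50 against 9.29, and chr14:78266340-78266816 had 5.40 against 8.99 and 4.58 against 9.29. These 6 regions were chosen for their ratios, and rest on 5 to 32 fragments in each library.

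E669Q and wild-type SLFN11 were also compared at the same treatment. With CPT the median E669Q over wild-type SLFN11 ratio of scaled pileup was 0.768 (0.737 to 0.798), with 17 regions higher by 1.5-fold or more and 176 (33.5%) lower, against 4.06% and 26.3% over all 4580 regions in both libraries. With DMSO it was 1.06 (1.03 to 1.11), with 91 regions (17.3%) higher and 41 (7.79%) lower. Over the 6179 regions in both libraries, 677 (11%) were higher and 728 (11.8%) lower. On the authors' fold the medians were 1.09 with CPT and 0.972 with DMSO, again on the other side of 1. On chromosome 19 the ratio of scaled pileup was 0.928 (0.893 to 1.04) with CPT and 1.29 (1.06 to 1.45) with DMSO, against 0.737 and 1.03 on the other chromosomes.

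The ranking of the 526 regions was loosely shared between libraries. Spearman rho of scaled pileup was 0.448 between the E669Q libraries, 0.405 between the wild-type SLFN11 libraries, and 0.333 to 0.383 between a library of each line. In the regions found in all 6 libraries these were 0.721, 0.597 and 0.578 to 0.668. The selected regions covered a narrower range of scaled pileup. In E669Q with CPT its quartiles were 4.50 and 7.21, against 6.76 and 11.7 in the regions found in all 6 libraries. The part of this range in the lower rho was not tested.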

How the data were processed

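ATAC-seq peak lists of 6 K562 libraries were used, 1 per group, grouped by the labels. Per the submitters' processing notes, the build was hg19 and the tools were MACS2 2.1.2, Picard 2.9.2, SAMtools 1.8, Bowtie2 2.2.6 and Trimmomatic 0.39, with no roles or settings given. Read shifting, duplicate handling and read numbers are not given in the sources used here. Each deposited peak carries the authors' fold enrichment, a ratio over local background, its p-value and q-value as −log10, and a score made from the q-value. The lowest deposited −log10 q was 2.00 to 2.01.

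Intervals overlapping by at least 1 bp were merged. Per region and library the summit with the highest −log10 p was kept. Fold and −log10 p together gave a whole pileup and a background (pseudocount 1, tolerance 0.001) for 98.7% to 99.3% of entries. Relative depth is the lowest background divided by the step of 1 fragment in 10 kb. Medians carry 95% intervals from order statistics, which treat regions as independent and do not cover variation between libraries. The scripts were tested on simulated data.

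With 1 library per group no p-value was computed. The members, lists and thresholds were chosen with earlier results of these data known. Named regions were the 10 with the highest lowest fold, the 5 widest, the largest groups, the 3 with the highest and the 3 with the lowest CPT over DMSO ratio in both lines, and 3 on each side of the rule; no region with an interval of 150 bp or less ranked with the 10. Genes, motifs and base content of the regions were planned but not analysed here, since no hg19 genome or annotation was used. The work ran in Python 3.11.15 with matplotlib 3.10.9, scipy 1.17.1, pandas 2.3.3 and numpy 2.4.6.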

Additional observations from a re-analysis of the deposited data

Results flagged for a closer look

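The median CPT over DMSO ratio of scaled pileup at the 526 regions lay on opposite sides of 1 in the SLFN11 lines, at 0.827 in E669Q and 1.15 in wild-type SLFN11. With 1 library per group this difference was not tested. The median E669Q over wild-type SLFN11 ratio likewise lay on opposite sides of 1, at 0.768 with CPT and 1.06 with DMSO, and this difference was not tested either. All 4 ratios come from the same 4 libraries, and all 4 crossed 1 on the authors' fold. Relative depth was 2.22 with CPT and 1.33 with DMSO in E669Q, and 1.09 with CPT and 1.72 with DMSO in wild-type SLFN11, so in each of the 4 ratios the deeper library had the lower scaled pileup. The part of depth in them was not tested.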

How the results depend on the processing

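The number of regions depended on the settings more than the share on chromosome 19 did. It was 278 at a −log10 q of at least 5, 124 in lists of matched length (5246 intervals), 116 where each interval had to cover at least 50% of the region, and 106 where every SLFN11-line library had to pass at vector depth; the setting that asks for the mean of the 4 libraries, added after seeing the data, gave 430. Leaving out 1 library, which drops a condition of the rule, gave 587 to 1310 regions. The highest counts were 1310 without wild-type SLFN11 with CPT, 1136 without vector with CPT and 930 without vector with DMSO. The chromosome 19 share was 12.6% at a −log10 q of at least 5 and 23.6% at vector depth in all 4 libraries, 11.2% to 16.4% with 1 library left out, and 13.4% to 16.9% under the other settings. The ratios of scaled pileup were reversed on the authors' fold: CPT over DMSO was 1.04 in E669Q and 0.920 in wild-type SLFN11, and E669Q over wild-type SLFN11 was 1.09 with CPT and 0.972 with DMSO. Scaled by the regions in all 6 libraries they were 0.963, 1.32, 0.860 and 1.17 in that order, and the cause was not tested. Median pileups of 8 to 13 fragments limit every ratio of single regions. Motifs around summits were not run. No paired analysis was possible because the groups share no more than 1 replicate number and the 526 regions have values in the 2 SLFN11 lines alone, which leaves 2 pairs of CPT and DMSO libraries.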
